A study of Eptesicus fuscus and Canis lupus familiaris and Equus caballus with 4 samples.

Results

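The big brown bat Eptesicus fuscus was represented by a list of hairpin candidates from the small RNA of adult testis. A hairpin candidate is a stretch of genomic contig, predicted to fold into a stem with a loop when transcribed, at which small RNA reads were placed. The members are all rows of the deposited bat list, 762 candidates out of 1453 in the 3 candidate lists of the series. The study sequenced the small RNA fraction of testis total RNA from a dog, a horse and bats, as 50 bp single-end reads in 4 libraries. The bat list comes from 1 library, so nothing here measures variation between bats, and the other bat library was not analysed here. No genotype or treatment is given for the animals, and whole testis holds stromal, vascular and blood cells beside germ cells.

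In animals a miRNA gene gives a transcript with a hairpin, which the nuclease Drosha releases and the nuclease Dicer cuts near its loop. This leaves a short duplex with a piece of each arm. As a rule 1 strand is kept in an Argonaute protein, where the bases that follow its first base, called the seed, pair with target messages, and the other strand is degraded. A genuine miRNA hairpin therefore tends to show many reads from 1 arm with a sharp start. In testis, miRNAs of the miR-34 and miR-449 families and of the miR-17 cluster are well known for their roles in germ cells. For the bat list, arm, read number, number of distinct read sequences, predicted fold and the number of miRanalyzer models that predicted the candidate are described below. MiRanalyzer is a program that scores hairpins with 5 models, and every listed candidate was predicted by 4 or 5 of them.

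The candidates to which the results return are printed here as hairpins, 5′ to 3′ on the strand given, with the listed mature sequence in capitals. Sequences and positions are as deposited. The sources used here do not name the genome build of the contigs, whose names begin with ALEH, and no gene annotation of that build was used. Candidate_602 on ALEH01139364.1:1202-1346 (plus strand) had the most reads. Candidate_135 on ALEH01062116.1:4037-4171 (plus) was next and carries miR-99a. Candidate_667 on ALEH01073886.1:6735-6869 (minus) led the 3p arm and carries miR-22. Candidate_306 on ALEH01108121.1:8043-8177 (plus) had a single distinct read sequence, Candidate_819 on ALEH01124380.1:6312-6404 (minus) had the strongest fold per base among candidates with at least 10 reads, Candidate_341 on ALEH01159073.1:2932-3016 (plus) was the best-read candidate that only 4 models predicted, and Candidate_592 on ALEH01056910.1:6360-6462 (minus) is a strongly folded candidate with 1 read, shown for a stretch that many hairpins of the list share. Names of known miRNAs are general knowledge of their sequences, since no reference table of miRNAs was used.

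Candidate_602: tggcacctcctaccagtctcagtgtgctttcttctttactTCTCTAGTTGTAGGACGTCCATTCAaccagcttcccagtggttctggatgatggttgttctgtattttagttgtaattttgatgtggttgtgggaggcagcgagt
Candidate_135: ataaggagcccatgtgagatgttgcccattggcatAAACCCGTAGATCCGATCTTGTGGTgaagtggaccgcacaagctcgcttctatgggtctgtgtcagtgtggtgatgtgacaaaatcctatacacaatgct
Candidate_667: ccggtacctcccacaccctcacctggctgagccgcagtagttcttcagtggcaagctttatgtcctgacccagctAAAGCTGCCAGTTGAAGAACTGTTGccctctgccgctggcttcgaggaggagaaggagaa
Candidate_306: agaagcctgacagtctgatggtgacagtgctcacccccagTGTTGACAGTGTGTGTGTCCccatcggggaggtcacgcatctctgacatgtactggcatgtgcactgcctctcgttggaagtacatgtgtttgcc
Candidate_819: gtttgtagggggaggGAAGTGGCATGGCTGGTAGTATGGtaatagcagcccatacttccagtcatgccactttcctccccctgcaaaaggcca
Candidate_341: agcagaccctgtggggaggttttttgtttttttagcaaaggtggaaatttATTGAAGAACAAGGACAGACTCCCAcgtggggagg
Candidate_592: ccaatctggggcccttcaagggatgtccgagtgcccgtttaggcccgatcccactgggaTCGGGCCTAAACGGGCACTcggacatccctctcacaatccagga

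These hairpins share a layout that nearly the whole list follows. In 755 of the 762 candidates the hairpin length equalled 2 outer flanks plus 2 mature lengths plus a middle of 15 bases, so the listed mature sequence sat at 1 end of the middle and a mirror arm of equal length at the other. The outer flank, from the mature sequence to the nearer hairpin end, ran from 6 to 40 bases and was a multiple of 5 in all but 5 candidates. A flank of 40 was the most frequent, with 239 candidates (31.4%), and a flank of 10 was found in 3. Of the 7 candidates with another layout, 4 began at the first base of their contig. Hairpin lengths ran from 85 to 145 bases with a median of 127, and mature lengths from 17 to 25. The longest hairpins, 145 bases, and the shortest, 85 bases, are thus the widest and narrowest windows for a mature sequence of 25 bases. Candidate_3, of 145 bases with 512 reads, carries miR-34b, a germ line miRNA, and Candidate_33 and Candidate_39 had the same length with 10 and 16 reads. Candidate_347 with 386 reads and Candidate_889 with 266 reads had 85 bases. Hairpin length is therefore read here as a property of the window and not of the transcript.

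**Figure D1:**
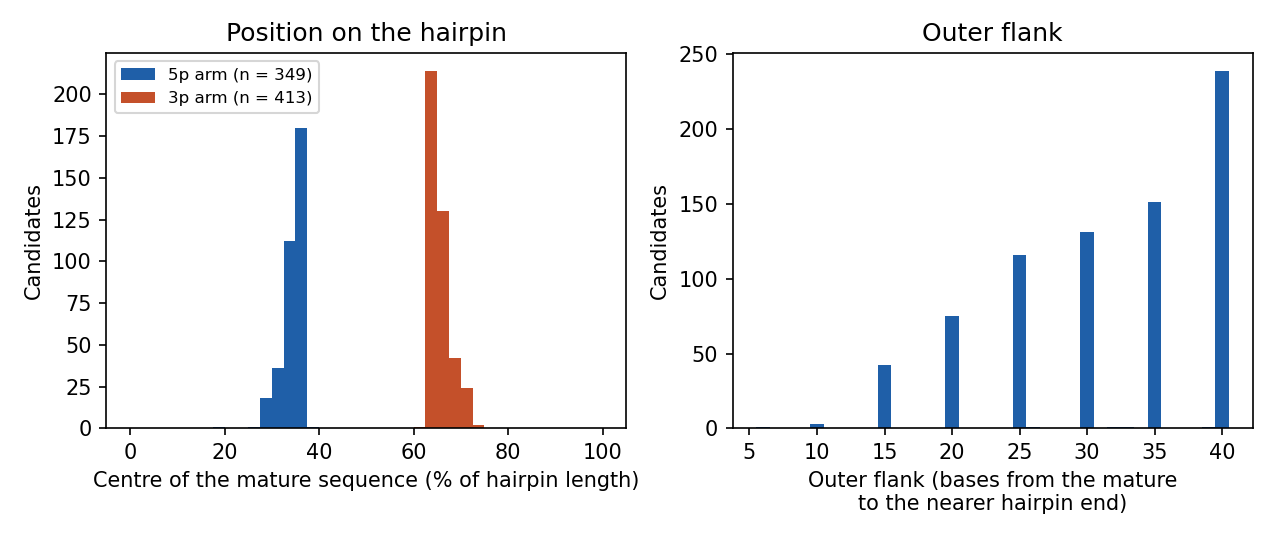
Left, the centre of the listed mature sequence as a percentage of hairpin length for 349 candidates on the 5p arm and 413 on the 3p arm. Right, the outer flank in bases over all 762 candidates. No centre lies between 37.6% and 62.4% of the hairpin, and the flanks fall on multiples of 5 with few exceptions.

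The arm was read from the position of the mature sequence beside the middle stretch, so the gap between the arms follows from the layout. The centre of the mature sequence lay between 19.3% and 37.6% of the hairpin on the 5p arm and between 62.4% and 73.5% on the 3p arm. In the predicted fold the mature bases paired with the other side as the position implies in 753 candidates, with the opposite side in 6, and with both or neither in 3. All candidates were listed as predicted hairpins, so most of this agreement was set in advance. The known miRNAs among the best-read candidates lay on the arm of their usual name, miR-99a-5p, miR-145-5p and miR-125b-5p on the 5p arm and miR-22-3p and miR-101-3p on the 3p arm.

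Candidates were somewhat fewer on the 5p arm, but the 5p arm held most of the reads. The 5p arm had 349 of the 762 candidates (45.8%, 42.2 to 49.4) and 56524 of the 89091 summed reads (63.4%, 63.1 to 63.8). The candidate share was 48.1% with at least 2 reads (43.8 to 52.5) and 49.8% with at least 10 (43.5 to 56.1). With identical mature sequences once it was 48.2% (44.3 to 52.2), and these intervals reached past 50%. Those with all 5 models, overlapping hairpins joined, arm by fold or mature sequences under 25 bases stayed below 50%. Beside each share stands its exact 95% interval (Clopper-Pearson), which holds counting error alone. It takes candidates or reads as independent, although overlapping hairpins and repeated sequences share reads. The median was 4 reads on the 5p arm (3 to 5) and 3 on the 3p arm (2 to 3), and these intervals met only at 3. Of the 16 candidates with at least 1000 reads, 12 were on the 5p arm, which is 9 of their 13 distinct mature sequences. Below 1000 reads, the 5p arm held 43.5% of the reads, and among candidates whose mature sequence was shorter than 25 bases it held 39.2%.

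The best-read 5p candidates were Candidate_602 with 9487 reads, miR-99a in Candidate_135 with 8100 and Candidate_694 with 3276. Candidate_694 on ALEH01097396.1:2709-2833 carries miR-145, a miRNA of smooth muscle. The best-read 3p candidates were miR-22 in Candidate_667 with 4975 reads, miR-101 in Candidate_60 with 2811 and miR-19b in Candidate_281 with 1352. MiR-101 is known as a regulator of the chromatin enzyme EZH2. Among the 10 best candidates of the list, 8 were on the 5p arm and 2 on the 3p arm.

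Few loci were listed with both arms. When same-strand hairpins that overlapped were joined, 669 loci remained, and 87 of them had candidates on both arms. The 5p arm had more reads in 42 of these, the 3p arm in 43, and 2 were equal. Some loci repeat a pair of counts, such as 244 and 256 reads on ALEH01063747.1 and on ALEH01134246.1, so the 87 are not independent. The higher arm had a median of 11.4 times the reads of the lower arm (6.50 to 19.4), from equal to 1620 times at the miR-99a locus, with 8100 reads on the 5p arm and 5 on the 3p arm. At the miR-22 locus the 3p arm had 4975 reads and the 5p arm 6, and at the miR-99b locus of Candidate_875 the 5p arm had 1766 and the 3p arm 62. For Candidate_602, Candidate_694, Candidate_60 and Candidate_80 no candidate was listed on the other arm. Of the 582 loci listed on 1 arm, 44.7% were on the 5p arm (40.6 to 48.8).

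Over all candidates, the first listed base differed between the arms. It was T, standing for U in the RNA, in 53.9% of 5p sequences (48.5 to 59.2) and 41.6% of 3p sequences (36.8 to 46.6), and A in 18.1% (14.2 to 22.5) and 28.1% (23.8 to 32.7). Argonaute proteins are known to favour a 5′ U, but the first listed base is not in every case the start of the miRNA. The listed sequences of miR-19b and miR-101, both on the 3p arm, begin upstream of the usual start. The part of such starts in the difference between the arms was not tested. The intervals for T overlapped with identical mature sequences counted once (48.1 to 59.5 and 37.6 to 48.5), with at least 10 reads (44.5 to 62.4 and 29.1 to 46.5) and for mature sequences under 25 bases (44.4 to 56.7 and 36.8 to 47.4). Those for A stayed apart with at least 10 reads (8.62 to 21.5 and 24.1 to 40.9) and overlapped in the other cases (14.4 to 23.4 and 21.4 to 31.0 once each, 14.5 to 24.2 and 22.3 to 31.8 under 25 bases). C stood first in 15.2% and 17.2% and G in 12.9% and 13.1%, with intervals that overlapped. By contig strand, 417 candidates lay on the minus strand (54.7%, 51.1 to 58.3), a direction that is arbitrary for a contig.

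The reads were concentrated in few candidates. The best candidate held 10.6% of the summed reads, the 10 best 45.2% and the 100 best 91.9%. It took 13 candidates to reach 50% of the reads, 89 to reach 90% and 307 to reach 99%. The 381 candidates with fewest reads together had 574 reads, 0.644% of the total. The Gini coefficient, which is 0 for equal reads and approaches 1 when a single candidate has them all, was 0.909, and 0.908 with each identical mature sequence once. In that count the 10 best mature sequences held 50.1% of 78353 reads.

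By read class, 230 candidates (30.2%) had 1 read and 277 (36.4%) had 2 to 9, and these classes supplied 230 and 1038 reads. There were 142 candidates with 10 to 99 reads, 97 with 100 to under 1000 and 16 with 1000 or more, and the last 2 classes held 37.8% and 55.7% of the reads. Reads were also concentrated by contig, with 11 of the 580 contigs holding 50% of them, although 476 contigs had 1 candidate each. The contig with most candidates, 13, had 466 reads.

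**Figure D2:**
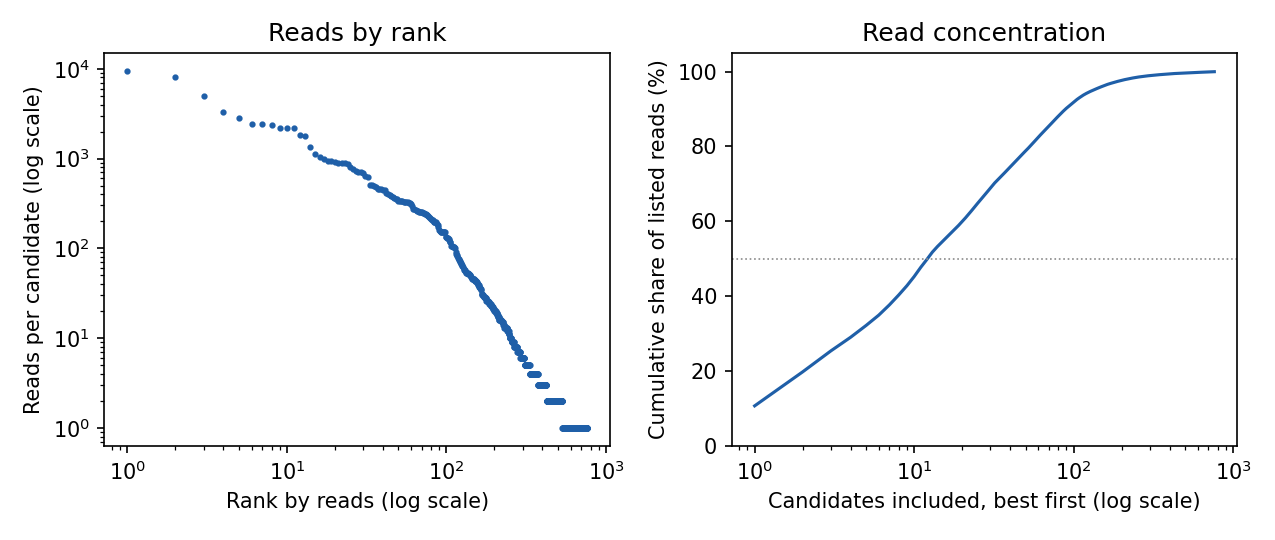
Left, reads per candidate against rank, both on log scales, for the 762 candidates. Right, the cumulative share of the 89091 summed reads as candidates are added from the best-read on, with a dotted line at 50%. The curve crosses 50% at 13 candidates and stands at 91.9% at 100.

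Some mature sequences were listed more than once. For 183 candidates the mature sequence was that of another candidate too, in 68 sets of up to 7. In 65 of these sets all members had the same read count, and in 65 the same number of distinct sequences. Of the 10 best candidates, Candidate_97 and Candidate_493 formed such a pair and Candidate_155 and Candidate_909 belonged to a set of 3, whose remaining member, Candidate_910, had the same 2198 reads. In the set of 7, which includes Candidate_356, every member had 2 reads on a contig of its own. No miRNA name is given here to the sequences of Candidate_97 and Candidate_155, which share bases 2 to 8. Candidate_97 lies on ALEH01124406.1:1840-1984 and Candidate_155 on ALEH01124389.1:546-650, both on the minus strand. They are printed with bases 2 to 8 of the listed sequence in capitals, beside other well-read sequences: miR-145, miR-125b in Candidate_80 on ALEH01062117.1:7250-7382, miR-101 in Candidate_60 on ALEH01025132.1:22834-22948 (minus) and miR-19b in Candidate_281 on ALEH01127992.1:26960-27104.

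Candidate_97: tTGGCTGCatcactggtactgatgt
Candidate_155: tTGGCTGCatcactggtactgaggt
Candidate_694: gTCCAGTTttcccaggaatccctta
Candidate_80: tCCCTGAGaccctaacttgtgagg
Candidate_60: gTACAGTActgtgataactgaagga
Candidate_281: cTGTGCAAatccatgcaaaactgat

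In these sequences the capitals mark bases of the listed sequence and are not in every case the seed. MiR-145 and miR-125b start as the known miRNAs do. The listed sequences of miR-19b, miR-101, miR-22 and miR-99a begin upstream of the usual start, so bases 2 to 8 as listed are not their usual seed. The starts of individual reads are not listed, so a shift of the seed in the RNA itself cannot be read. Among the 647 distinct mature sequences, 136 shared bases 2 to 8 with at least 1 other, in 56 groups. The largest group by members, with AGCAGCA, had 5 sequences and 168 reads and is the seed of the miR-15 and miR-16 family, which restrains the cell cycle. The group with ATTGCAC had 4 sequences and 1529 reads and is the seed of miR-25 and miR-92. The group with TGGCTGC, to which Candidate_97 and Candidate_155 belong, had 3 sequences and 4661 reads, and the group with TCAAGTA, that of miR-26, had 3 and 1827. Groups with few reads were also among the larger ones, such as CGGGCCT with 4 sequences and 4 reads.

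Candidates with more reads had more distinct read sequences, but not in proportion. A candidate had a median of 3 distinct sequences (2 to 3), with a range of 1 to 148. The median was 2 at 2 to 9 reads, 9 at 10 to 99 reads, 34 at 100 to under 1000 and 87.5 at 1000 or more. On log scales, distinct sequences rose with a slope of 0.600 over all 762 candidates and 0.521 over the 255 with at least 10 reads, that is by a factor of 3.32 for each 10-fold rise in reads. Spearman's rho between the counts was 0.967 across candidates and 0.867 with at least 10 reads. These are descriptions across candidates of 1 library, in which the number of distinct sequences cannot exceed the reads.

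The number of reads per distinct sequence varied widely between candidates. Among candidates with at least 10 reads the median was 4.88 reads per distinct sequence (4.03 to 5.33), and among the 113 with at least 100 reads it was 9.75 (7.82 to 12.1), from 3.12 to 164. Candidate_602 had the highest ratio, with 58 distinct sequences among 9487 reads, or 164 reads each, and the ratio was higher at more reads across the list. MiR-99a, with 8100 reads, had 144 distinct sequences, and miR-101, with 2811 reads, had 148, the most in the list. MiR-22 had 73 distinct sequences among its 4975 reads, or 68.2 reads each. For miR-101 that value was 19.0, although both are well-known miRNAs of the 3p arm.

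Candidate_306 stood apart at low diversity. All of its 103 reads were 1 sequence of 20 bases, on the 5p arm, and all 5 models predicted it. Candidate_311, which carries miR-181b, also had 103 reads but 33 distinct sequences, the lowest ratio among candidates with at least 100 reads. Candidate_214 followed with 36 distinct sequences in 130 reads and Candidate_835, of the miR-29 family, with 28 in 106. Only 1 other candidate with at least 10 reads had a single distinct sequence, Candidate_371 with 12 reads, so the share was 0.784% of 255 (0.0951 to 2.80). At the other end, no candidate with at least 10 reads had all reads distinct, while 154 of the 532 with at least 2 reads did (28.9%, 25.1 to 33.0).

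**Figure D3:**
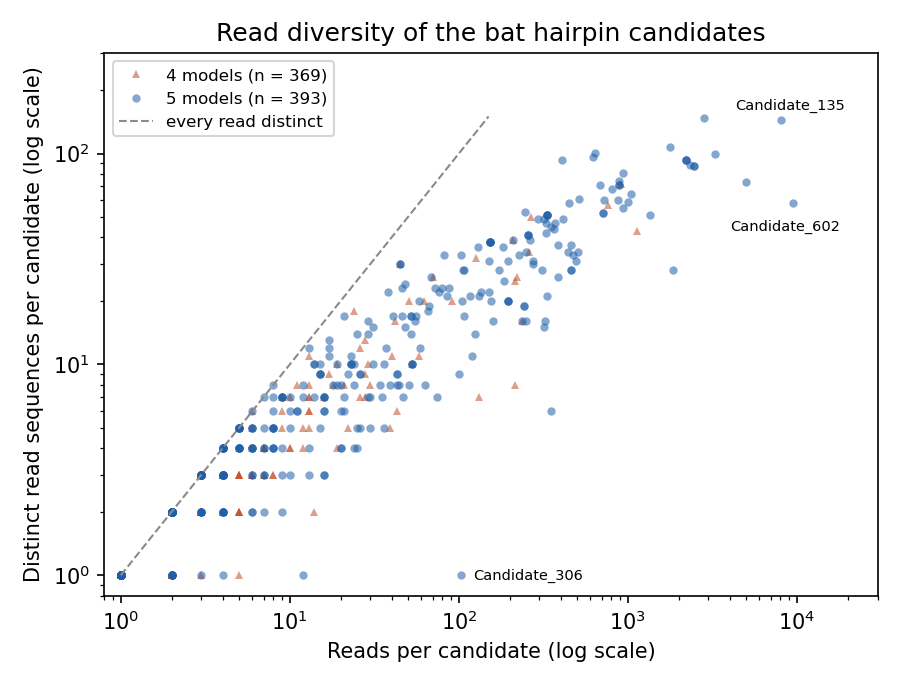
Distinct read sequences against reads, on log scales, for candidates predicted by 4 models (triangles, 369) and 5 models (circles, 393). The dashed line marks candidates in which every read is distinct. Candidate_306 lies on the floor at 103 reads and Candidate_602 lies at the right with 58 distinct sequences.

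Listed mature sequences were longer where there were more distinct reads. A length of 25 bases, the longest in the list, was found for 3.16% of candidates with 1 distinct sequence (1.37 to 6.14), 18.3% with 2 to 9 (14.4 to 22.9), 37.4% with 10 to 29 (27.4 to 48.1) and 48.8% with 30 or more (37.4 to 60.2). By reads, 6 of 230 candidates with 1 read and 15 of 16 with at least 1000 reads had 25 bases. The exception among the 16 was miR-125b in Candidate_80, with 24. Known miRNAs in the list such as miR-99a and miR-22 are usually shorter than the listed 25 bases. The deposited description of the columns calls the longer sequence column one built from all reads, yet that column spans the hairpin interval in all 762 candidates. For the mature sequence it does not say whether overlapping reads were joined. Length is thus given beside the first base above, because both read the ends of the listed sequence.

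The models agreed more often on candidates with more reads. All 5 models predicted 393 of the 762 candidates (51.6%, 48.0 to 55.2). The share was 25.7% at 1 read (20.1 to 31.8), 47.3% at 2 to 9 (41.3 to 53.4), 71.8% at 10 to 99 (63.7 to 79.1), 88.7% at 100 to under 1000 (80.6 to 94.2) and 93.8% at 1000 or more (69.8 to 99.8). The intervals of the first 4 classes did not overlap. Candidates with 5 models had a median of 12 reads (8 to 16) and those with 4 models a median of 2 (1 to 2), and they held 82634 and 6457 of the reads. Spearman's rho between models and reads was 0.465 across candidates. The sources used here do not say whether the models take read counts as an input.

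Fold strength hardly separated the listed model classes. Hairpins predicted by fewer than 4 models are not in the list, so a wider relation between score and fold cannot be read from it. The minimum folding energy per base had a median of -0.411 kcal/mol with 5 models (-0.421 to -0.402) and -0.419 with 4 (-0.438 to -0.407), and rho between energy and models was 0.045. A single terminal loop was predicted for 83.5% of hairpins with 5 models and 85.1% with 4. GC content did differ, with medians of 53.8% with 5 models (52.8 to 54.96) and 57.1% with 4 (56.5 to 58.1). It also fell along the read classes, from a median of 57.4% at 1 read to 49.7% at 1000 or more, and its part in the model share was not tested.

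Among candidates with at least 10 reads, the 52 with 4 models paired less along the mature sequence. A median of 76.0% of mature bases were paired in them (75 to 79.2), against 83.3% in the 203 with 5 models (82.6 to 85.0). Among candidates with 1 read the medians were 87.5% for 171 candidates with 4 models (86.4 to 90.5) and 88.9% for 59 with 5 (83.3 to 91.3), and these intervals overlapped. Candidate_341 was the only candidate with at least 1000 reads that 4 models predicted. It had 1133 reads and 68.0% of its mature bases paired. Its total fold was the weakest of the list at -23.9 kcal/mol, a value not divided by length. At 85 bases it was also among the shortest hairpins. Candidate_103 followed with 915 reads, 72 distinct sequences and 66.7% paired. Its listed sequence opens as 5S ribosomal RNA does, from general knowledge. The next was Candidate_852 with 761 reads, which carries miR-375, a miRNA known from endocrine cells.

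Candidate_103: gTCTACGGccataccaccctgaaa
Candidate_852: tTTTGTTCgttcggctcgcgtgag

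**Figure D4:**
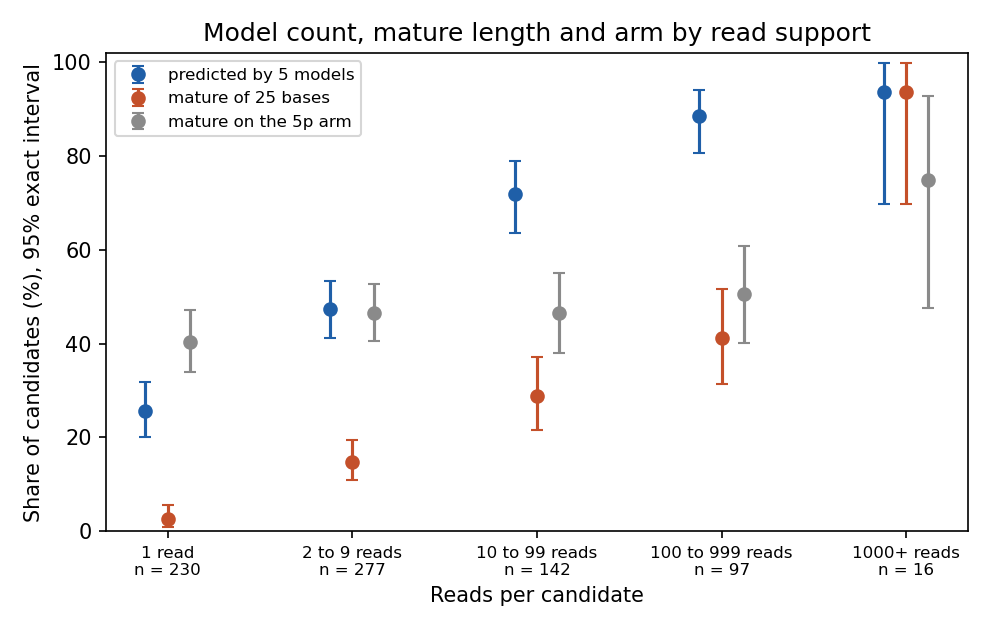
Share of candidates predicted by 5 models, with a mature sequence of 25 bases, and with the mature sequence on the 5p arm, in 5 classes of reads per candidate. Points are shares and bars exact 95% intervals. The model share climbs from 25.7% to 93.8% and the share of 25-base sequences from 2.61% to 93.8%, while the 5p share is 40.4% at 1 read and 75% in the 16 candidates of the last class.

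Most hairpins folded as a single stem. RNAfold predicted 1 terminal loop in 642 of 762 hairpins (84.3%, 81.5 to 86.8), 2 in 48, 3 in 65 and 4 or 5 in 5 and 2. Among hairpins with 1 loop the loop had a median of 6 unpaired bases, with a range of 3 to 21, and its centre lay within 5 bases of the hairpin centre in 619 of 642 (96.4%). A single stem with a central loop was largely set in advance, by the listing as a predicted hairpin and by the mirror layout. In the hairpins with several loops, 85% of 120 still had a loop within 5 bases of the centre (77.3 to 90.9), and 107 of the 120 folded with 1 loop when the outer flanks were removed. The best-read candidates with several loops were miR-99b in Candidate_875 (1766 reads, 3 loops), miR-204 in Candidate_561 (996 reads, 2 loops) and miR-26a in Candidate_121 (888 reads, 3 loops).

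Within the fold, a median of 84.0% of mature bases were paired (83.3 to 85.7), from 47.6% to 100%. The longest unpaired run in the mature sequence was at most 2 bases in 585 candidates (76.8%) and at most 8 in all. The mature sequence was fully paired in 46 candidates, 31 of which had 1 read. Paired share was highest at low support, with a median of 87.8% at 1 read (86.4 to 90.5) and 78.0% at 1000 or more reads (72.0 to 83.3). The length of the mature sequence rose along the same classes, and its part in this difference was not tested.

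The strongest folds were less often well read. Folding energy per base had a median of -0.414 kcal/mol (-0.424 to -0.408) over the list and ran from -0.802 to -0.225. In the quartile of hairpins with the strongest folds, 21.99% had at least 10 reads (16.3 to 28.5) and 35.6% had 1 read (28.8 to 42.8). In the quartile with the weakest folds, 41.4% had at least 10 reads (34.3 to 48.7) and 24.6% had 1 (18.7 to 31.3), so the first pair of intervals stayed apart and the second overlapped. The weakest quartile held 36.7% of all reads and the strongest 13.9%. GC content was 60.2% in the strongest quartile and 50.4% in the weakest, as medians.

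Candidate_602 was among the weakest folds despite its reads, at -0.259 kcal/mol per base with 72.0% of mature bases paired. Candidate_368, with 10 reads and 4 models, had the weakest fold per base of the list at -0.225, and Candidate_644, with 42 reads, was at -0.261. The listed sequence of Candidate_644 is that of a stretch of U2 small nuclear RNA, from general knowledge. Among candidates with at least 10 reads the strongest folds belonged to sequences listed more than once. Candidate_819 stood at -0.751 and Candidate_422 at -0.716, and both list the same mature sequence with 153 reads and 38 distinct sequences, which 5 candidates share. Candidate_421, on the other arm of the Candidate_422 stretch, stood at -0.716 with 16 reads.

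Candidate_644: tCTCGGCCttttggctaagat
Candidate_421: tACTGCTAgtcatgccgcttacct

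A repeated sequence was seen among the strongest folds and picked for that reason, so the fold strength of its hairpins is no finding. In Candidate_592 the stretches GGATGTCCG and GATCGGGCC face their reverse complements across the loop. Searched on both strands, GGATGTCCG was found in 60 hairpins (7.87% of the 762) and GATCGGGCC in 31 (4.07%), and 67 hairpins on 65 contigs held either. Of the 67, 52 had 1 read, none had more than 5, and all of them together had 92 reads. All 5 models predicted 20 of the 67 (29.9%, 19.3 to 42.3).

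Since these 67 hairpins were picked for their folds, the values by fold strength are also given without them, as a description. In the strongest quartile 27 of the remaining 136 had 1 read (19.9%, 13.5 to 27.6), and 30.9% had at least 10 reads (23.2 to 39.4). In the weakest quartile, which held none of the 67, the values stayed at 24.6% and 41.4%, and both pairs of intervals then overlapped. Spearman's rho between reads and energy per base was 0.156 over all candidates and 0.048 without the 67. None of the 67 had more than 5 reads, and 55 of them lay in the strongest quartile, with quartile limits kept from the whole list. The direction of these shifts was thus set in advance. Both stretches are read as letters in the hairpin and not as a known element.

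A stretch known from transfer RNA genes, the B box of their internal promoter, was likewise chosen after the values were seen. It was searched as GTTNGANTC on both strands and found in 40 hairpins (5.25%, 3.78 to 7.08). Of these, 23 had 1 read (57.5%, 40.9 to 73.0), against 28.7% of the other hairpins (25.4 to 32.1), and 13 were predicted by 5 models (32.5%, 18.6 to 49.1), against 52.6% (48.9 to 56.3). They folded weakly, with a median of -0.378 kcal/mol per base, and 2 of them were in the strongest quartile. All of them together had 1086 reads, and the best-read carry known miRNAs: miR-128 in Candidate_309 with 448 reads, miR-200a in Candidate_322 with 388 and miR-181b in Candidate_311 with 103. The letters thus also occur in hairpins that are not transfer RNA. The source of the others was not tested, and the shares describe hairpins with these letters, not transfer RNA as a class. The share of genome windows of this length that hold these stretches was not measured here.

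**Figure D5:**
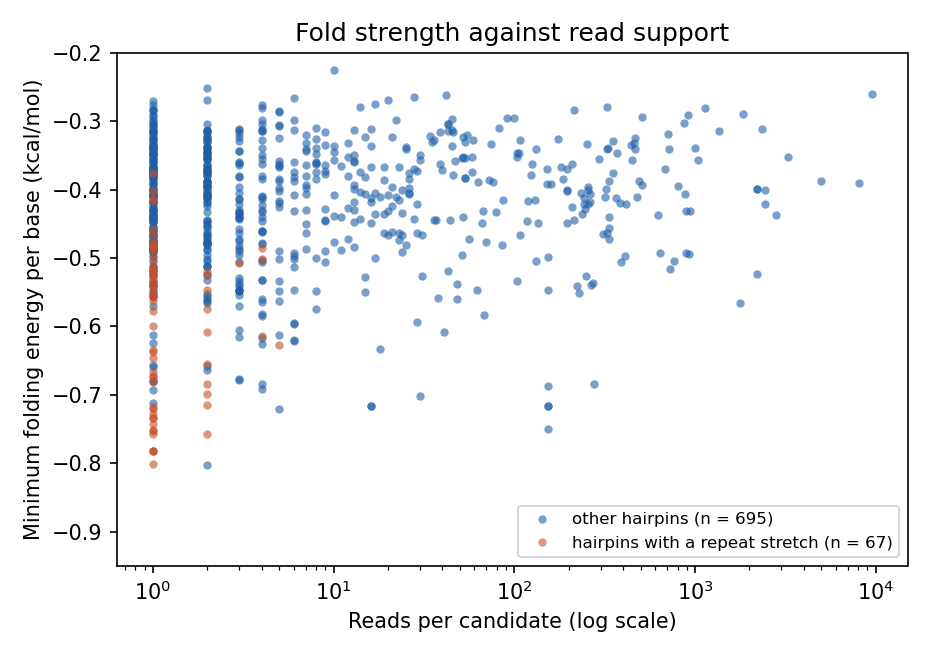
Minimum folding energy per base in kcal/mol against reads per candidate on a log scale. Red points are the 67 hairpins with GGATGTCCG or GATCGGGCC on either strand and blue points the other 695. The red points, picked from strong folds, lie at 5 reads or fewer.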

How the data were processed

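Small RNA of adult testis was sequenced as 50 bp single-end reads, per the labels' protocols, and 1 bat library was used. The deposited list comes from a local installation of miRanalyzer, per the deposited description of its columns. The deposited counts are whole numbers, the distinct read sequences and summed reads at each candidate, without normalization. The deposited score counts, out of 5 models, those by which the candidate was predicted. The deposited fraction, to 3 decimals, relates the reads to the authors' total. It was 0.000 for 621 candidates, and bounds that total at 98889 to 99340 reads. The deposited sequence column, described there as built from all reads, spans the whole hairpin interval and was used as the hairpin. Positions are 1-based and held the mature sequence in all 762 candidates. The submitters' processing notes name the dog build CanFam 3.1 for the bat library, while its contigs carry ALEH names. The bat build, trimming, mapping and any removal of known miRNAs are therefore not stated in the sources used here.

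Arm was set by the centre of the mature sequence against the hairpin centre. Folds came from RNAfold 2.7.2, and the statistics from scipy 1.17.1 and numpy 2.4.6 under Python 3.11.15. Medians carry 95% intervals from order statistics. With 1 library no test was run. On 200 simulated hairpins with fully complementary arms and set positions, arm and layout were recovered in 200. That checks the calculation only and not hairpins whose arms pair in part. The members, lists, stretches and settings were chosen with earlier results of these data known. Named candidates were the 10 best by reads, and the extremes of arm, diversity, fold, length, model count and loops within minima of 10 or 100 reads. Candidate_309, Candidate_322, Candidate_356, Candidate_371, Candidate_592 and Candidate_910 were named after their values were seen. That rule kept deposited names where no miRNA table was given, and known miRNA names were added as background.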

Additional observations from a re-analysis of the deposited data

How the results depend on the processing

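Across 55 recalculations, 31 values stayed within the 95% interval of the reported value and 24 moved beyond it. The 5p share of candidates was 49.8% with at least 10 reads. The 5p share of reads was 64.4% with all 5 models, 60.9% with identical mature sequences once, 59.1% without the top candidate, Candidate_602, 39.2% with mature sequences under 25 bases and 43.5% below 1000 reads. So the 5p arm held less than 50% of the reads in the last pair of settings. The 10 best held 50.1% of reads with identical mature sequences once, 46.2% over joined loci, 48.8% with all 5 models and 41.5% without the top candidate. Single-read candidates made up 15.01% with all 5 models and 25.6% without the repeat stretches. The median of reads per distinct sequence was 2 at a minimum of 2 reads and 9.75 at 100. The share with 5 models was 79.6% at a minimum of 10 reads and 62.8% at 2. Median energy per base was -0.400 kcal/mol with at least 10 reads and -0.407 without the repeat stretches, which were picked from strong folds. It was -0.432 when the free energy of the whole fold ensemble replaced the minimum energy. The ensemble energy of a hairpin cannot lie above its minimum energy, so the direction of that shift was set in advance. A single loop was predicted in 88.2% with at least 10 reads, 89.1% in the centroid fold and 94.1% without the outer flanks. Mature bases paired at a median of 82.6% with at least 10 reads and 77.3% without the outer flanks. The cause of these shifts was not tested. The settings on mature length, on fewer than 1000 reads, on repeat stretches and without outer flanks were chosen after seeing the data. No paired analysis was possible because there was 1 library. At 1 read, neither diversity nor a start position can be read, and 1 library limits every value to that library.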
